A study of Chlorocebus aethiops with 12 samples.

Results

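The set described here holds 10 human transcript records that encode ligands of the epidermal growth factor (EGF) receptor, the receptor itself and the inhibitors that act on it or on the Ras-ERK cascade below it. Its members were chosen by record ID from a whole-genome array on which 20037 features were tested. The 3 ligands are HBEGF (NM_001945), AREG (NM_001657) and EREG (NM_001432), and the receptor is EGFR (NM_005228). The 6 inhibitors are ERRFI1 (NM_018948), SPRY1 (NM_005841), SPRY2 (NM_005842), SPRY4 (NM_030964), SPRED1 (NM_152594) and SPRED2 (NM_181784). SPRY1 was not analysed, since none of the probes is listed under its record ID, and the other 9 records had 14 probes. Of these probes 10 passed the filter on dim signals, and they measured 8 of the 10 records. EREG did not pass.

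Transcripts were measured in COS-1, a kidney cell line of the African green monkey, with 3 arrays in each of 4 groups. All groups had been transiently transfected with V5-tagged mouse CCRP, which is a nuclear receptor co-chaperone, and with human glucocorticoid receptor (GR) carrying a FLAG tag. The receptor was the Y30F mutant in Y30F-DEX and Y30F-DMSO and the Y30E mutant in Y30E-DEX and Y30E-DMSO. The DEX groups received 100 nM dexamethasone, a synthetic glucocorticoid, and the DMSO groups 0.1% DMSO, the vehicle, for 6 h starting 40 h after transfection. One label lists a single construct per sample, but the groups follow the descriptions, which list both constructs throughout. The labels used here name no group with wild-type receptor or without receptor, do not give the share of cells that took up the plasmids, and do not say whether the 3 replicates were separate cultures. P-values therefore reflect the spread among these arrays, and that spread may be technical only. The files give record IDs without gene names, so markers of the cell line and other genes of the pathway were not examined.

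EGF receptor ligands are made as membrane-bound precursors and released by proteases. Ligand binding activates the receptor's kinase, which signals through Ras, Raf, MEK and ERK. ERK activity in turn raises transcription of inhibitors that act back on the pathway. ERRFI1 (also called MIG6) binds the kinase domain of the receptor, while Sprouty and SPRED proteins act lower down, around Ras and Raf. Glucocorticoids are known to dampen growth factor signalling in several cell types, and ERRFI1 is known as a gene that they induce.

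Signals are given after scaling each array so that its 75th percentile was 808 arbitrary units, and log2 changes compare a probe with itself. Since monkey RNA was measured here with human probes, signals of different probes were not set against each other. On the 12 arrays, 60.5% to 67.0% of spots had signals well above background, and none was saturated. The arrays came on 3 slides of 4, which overlap in part with the groups. Y30F-DEX replicate 1 shared slide 1 with all of Y30F-DMSO. Y30F-DEX replicates 2 and 3 shared slide 2 with Y30E-DMSO replicates 1 and 2. All of Y30E-DEX shared slide 3 with Y30E-DMSO replicate 3. A feature is called higher or lower where limma's Benjamini-Hochberg adjusted p over all features was below 0.05. In these bulk samples, a change in fewer cells cannot be told apart from a smaller change per cell.

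The first question was how dexamethasone changed the set in cells with either receptor. ERRFI1 rose more than 2-fold with both mutants. HBEGF fell with both, to 0.803 and 0.827 of its level under DMSO, and SPRED2 fell with Y30F. With slide as a block in the fit, of these calls only those of ERRFI1 passed. In that fit each change came from 1 array against 3 on a single slide. The other inhibitors had lower means under dexamethasone but did not pass the test, and EGFR and AREG did not pass either. With Y30F, 3 of the 8 members tested had changed, 1 higher and 2 lower, where 1.82% of all features had changed (1.43% higher and 0.389% lower). Of all calls with Y30F 78.6% were higher, against 65.8% with quantile normalization and 46.1% with median centring. With Y30E, 2 of 8 had changed, 1 in each direction, where 2.11% of all features had (1.49% higher and 0.619% lower). The median change of the 8 members was -0.25 (log2) with Y30F and -0.14 with Y30E, and that of all features was 0.02 and -0.00053. The change was below 0 for 7 of 8 members with Y30F and for 6 of 8 with Y30E, and for 42.4% and 50.1% of all features.

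**Figure D1:**
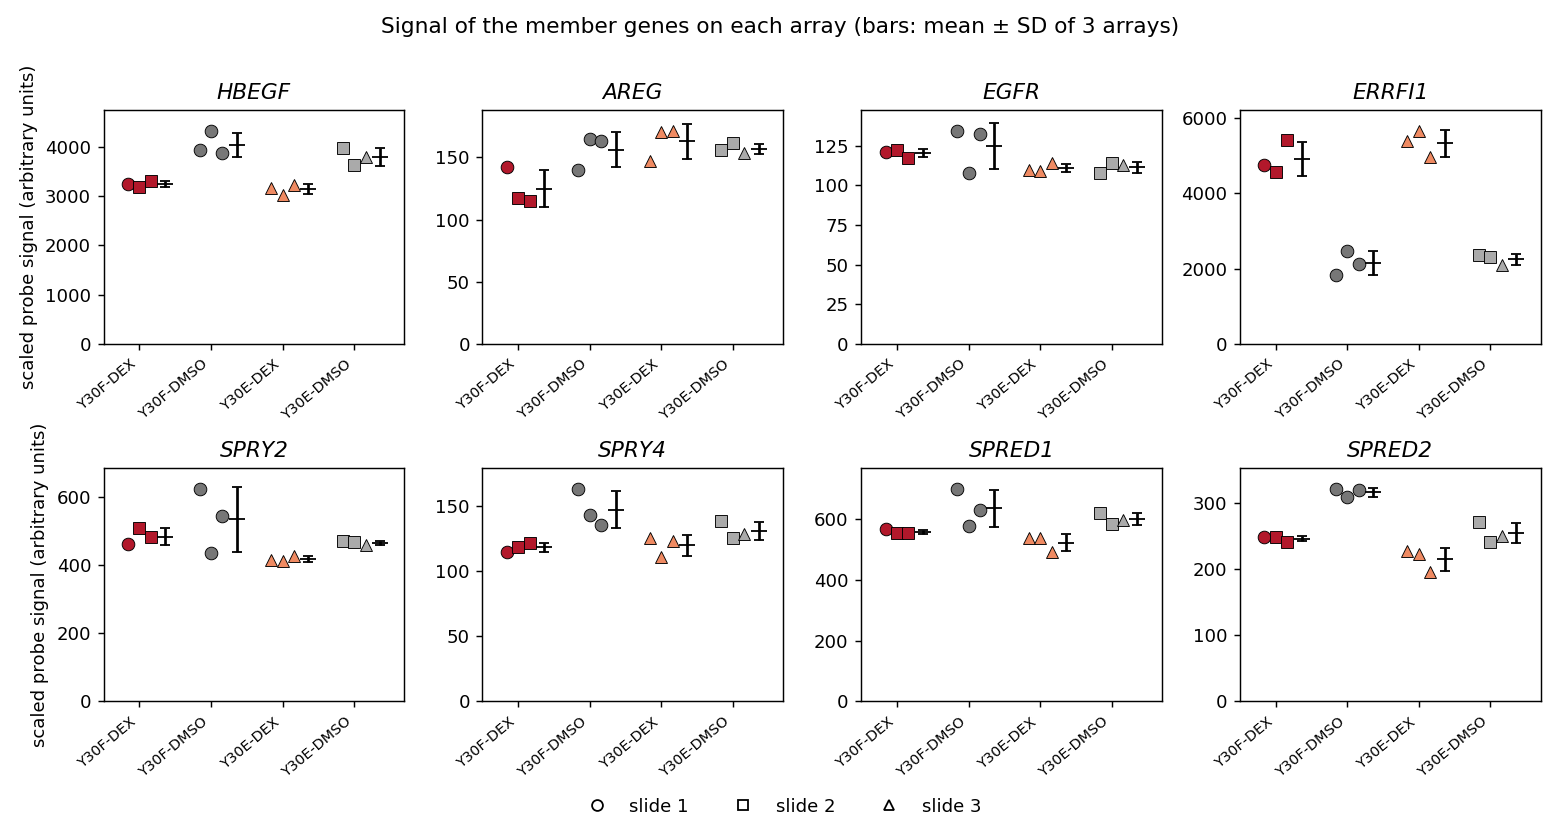
Scaled probe signal (y axis, arbitrary units, from 0) of the 8 measured members on each of the 12 arrays, by group (x axis), with the mean ± SD of 3 arrays beside each group and the slide shown by the symbol. ERRFI1 lay between 4563 and 5655 on the 6 DEX arrays and between 1837 and 2481 on the 6 DMSO arrays, and HBEGF lay lower on each DEX array than on any DMSO array.

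ERRFI1, the inhibitor that binds the receptor itself, was the member with the largest change. Its scaled signal was 4748, 4563 and 5420 in the Y30F-DEX replicates, against 1837, 2481 and 2134 in the Y30F-DMSO replicates. It was 5383, 5655 and 4955 in the Y30E-DEX replicates, against 2360, 2316 and 2089 in the Y30E-DMSO replicates. All 6 DEX arrays lay above all 6 DMSO arrays. With Y30F the change was 1.20 ± 0.11 (log2, SE, n = 3 against 3), a 2.29-fold rise (limma adjusted p = 3.4e-04). With Y30E it was 1.24 ± 0.11, a 2.36-fold rise (limma adjusted p = 3.0e-04). By size of the rise ERRFI1 stood at rank 97 of 20037 features with Y30F and at rank 34 with Y30E.

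The rise of ERRFI1 was about as large within single slides. On slide 1, the Y30F-DEX array lay 1.15 (log2) above the mean of the 3 Y30F-DMSO arrays. On slide 3, the mean of the 3 Y30E-DEX arrays lay 1.35 above the Y30E-DMSO array. With slide as a block the changes were the same 1.15 and 1.35, since slide 2 held no DEX and DMSO arrays of the same receptor. Each thus rests on a single array, the Y30F-DEX array of slide 1 or the Y30E-DMSO array of slide 3. In that fit both rises passed (limma adjusted p = 0.0194 with Y30F and 0.00734 with Y30E), as did 0.599% and 0.908% of all features. With the arrays of slide 2 left out, the Y30F rise was 1.15 and did not pass (limma adjusted p = 0.0708). That fit holds 1 Y30F-DEX array, whose spread is assumed to be that of the other groups, and so does the fit on slide 1 alone, which takes it from the 3 Y30F-DMSO arrays only (limma adjusted p = 0.24).

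A second probe for ERRFI1 was close to background. It rose well above background on 2 of 3 Y30F-DEX arrays and 0 of 3 Y30F-DMSO arrays, with mean signals of 23.3 in Y30F-DEX and 5.91 in Y30F-DMSO. For a cautious ratio, each Y30F-DMSO array was given the higher of the probe's own signal and the array's lowest signal well above background. The ratio of the Y30F-DEX mean to these was 1.21. It is not a firm lower bound, since Y30F-DEX replicate 1, at 22.4, was not well above background. In the Y30E groups the probe was well above background on 1 of 3 arrays each. Its signals there were 13.4, 16.9 and 29.8 in Y30E-DEX, against 12.7, 37.8 and 4.32 in Y30E-DMSO, and they overlap.

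HBEGF, a ligand that is anchored in the membrane and binds both EGFR and ERBB4, fell with both mutants. Its scaled signal was 3237, 3170 and 3297 in Y30F-DEX, against 3922, 4311 and 3863 in Y30F-DMSO. It was 3166, 3022 and 3223 in Y30E-DEX, against 3976, 3620 and 3782 in Y30E-DMSO. The DEX arrays lay below the DMSO arrays with either receptor. With Y30F the change was -0.32 ± 0.06 (log2, SE, n = 3 against 3; limma adjusted p = 0.0187), so that the Y30F-DEX level was 0.803 of the Y30F-DMSO level. With Y30E it was -0.27 ± 0.06 (limma adjusted p = 0.0372), a ratio of 0.827.

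The fall of HBEGF kept its size within slides but not its call. It was -0.32 (log2) within slide 1 for Y30F and -0.27 within slide 3 for Y30E. The fit with slide as a block gave the same changes, each again from 1 array against 3. Its limma adjusted p-values were 0.241 for Y30F and 0.405 for Y30E. With the replicate number as a block they were 0.0653 and 0.0963. The second HBEGF probe, well above background on all 12 arrays, changed by -0.26 ± 0.05 (SE) with Y30F (limma adjusted p = 0.0444, with all probes tested as features). With Y30E that probe changed by -0.20 ± 0.05 and did not pass (limma adjusted p = 0.12), with signals of 2395, 2389 and 2398 in Y30E-DEX, against 2869, 2707 and 2667 in Y30E-DMSO, which do not overlap. Leaving out any 1 of the 6 Y30E arrays ended the Y30E call, with adjusted p-values between 0.0635 and 0.173, and so did leaving out Y30F-DEX replicate 2 (0.0514) or 3 (0.0649). The Y30F call was lost without Y30F-DEX replicate 2 (limma adjusted p = 0.0795) or 3 (0.0649).

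AREG, a ligand of EGFR, did not pass in either comparison. Its scaled signal was 142, 117 and 115 in Y30F-DEX, against 140, 165 and 163 in Y30F-DMSO, and 147, 171 and 171 in Y30E-DEX, against 156, 162 and 154 in Y30E-DMSO. The groups overlap with both receptors. The low Y30F-DEX values are those of replicates 2 and 3, on slide 2, and replicate 1, on slide 1, lay within the range of Y30F-DMSO. The change with Y30F was -0.33 ± 0.10 (log2, SE; limma adjusted p = 0.173), and within slide 1 it was -0.13. Without Y30F-DEX replicate 1 it was -0.42 and passed (limma adjusted p = 0.0247). In that fit 1367 of 20037 features passed, against 365 with all arrays. It sets Y30F-DEX arrays of slide 2 against Y30F-DMSO arrays of slide 1, so hormone and slide cannot be told apart. With Y30E the change was 0.05 ± 0.10 (limma adjusted p = 0.871).

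EREG, a ligand of EGFR and ERBB4, had 2 probes, and neither was well above background on any of the 12 arrays. Their scaled signals were between 3.81 and 15.2, so no change is given for it.

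EGFR, the receptor, had a single probe printed in 10 spots per array, which makes it the best replicated member within an array. Its spots differed with an SD of 0.06 to 0.16 (log2) within an array, and 8 spot values over the 12 arrays were left out as outliers. The scaled signal was 121, 122 and 117 in Y30F-DEX, against 134, 108 and 133 in Y30F-DMSO, and 109.6, 109 and 114 in Y30E-DEX, against 108, 114 and 112 in Y30E-DMSO. The groups overlap with both receptors. The change was -0.05 with Y30F, with a 95% confidence interval from -0.22 to 0.12, and -0.01 with Y30E, with an interval from -0.18 to 0.16 (log2). The limma adjusted p-values were 0.841 and 0.982.

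**Figure D2:**
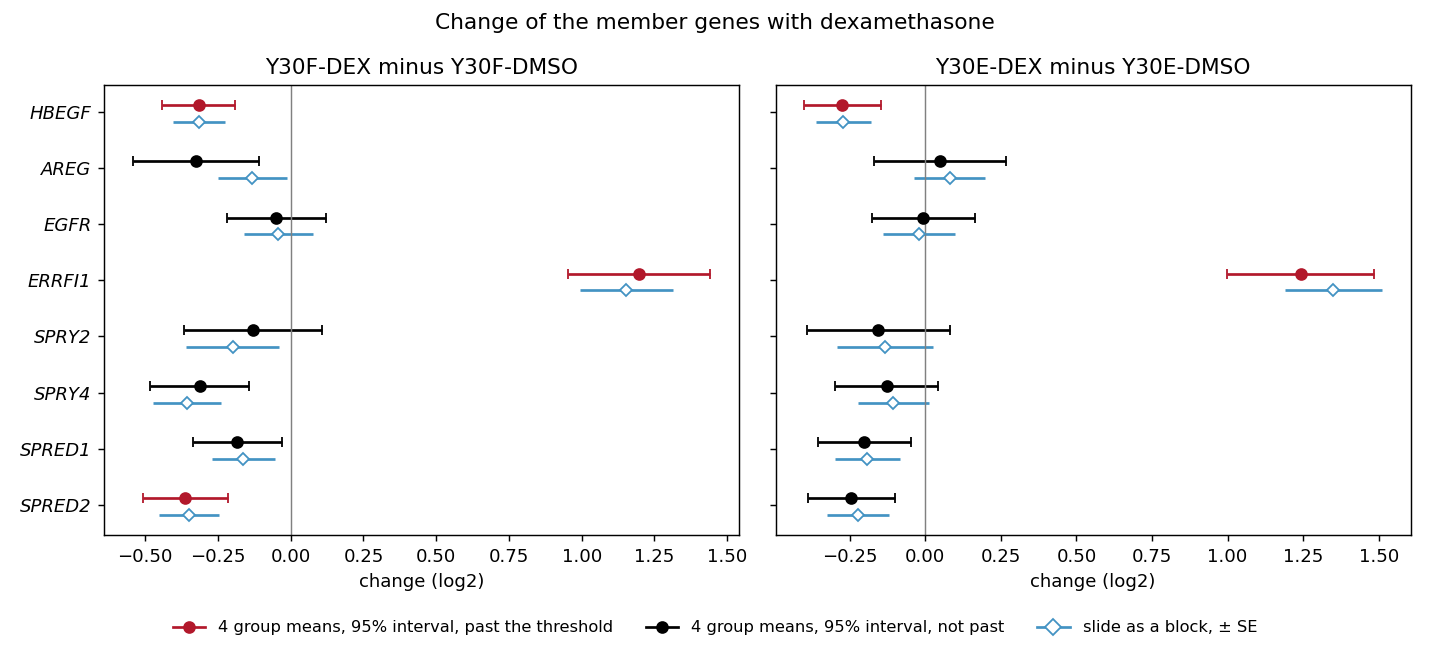
Change with dexamethasone (x axis, log2) of the 8 measured members in Y30F cells (left) and Y30E cells (right), with 95% confidence intervals for the fit on 4 group means (circles, red where past the threshold) and ± SE for the fit with slide as a block (diamonds). ERRFI1 stands alone on the right, at 1.20 and 1.24, HBEGF and SPRED2 lie left of 0 in both panels, and the blocked estimates lie within the intervals of the unblocked ones.

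SPRED2, which like SPRED1 restrains activation of the Ras-ERK cascade, fell with Y30F. Its scaled signal was 249, 249.7 and 242 in Y30F-DEX, against 322, 309 and 320 in Y30F-DMSO. It was 228, 223 and 195 in Y30E-DEX, against 272, 242 and 250.2 in Y30E-DMSO. The groups do not overlap with either receptor. The change was -0.36 ± 0.07 (log2, SE, n = 3 against 3) with Y30F (limma adjusted p = 0.0193), a ratio of 0.778. With Y30E it was -0.24 ± 0.07 and did not pass (limma adjusted p = 0.109). Within slides the changes were -0.35 and -0.22, each from 1 array against 3. With slide as a block they were the same, and neither passed (limma adjusted p = 0.253 and 0.682). Leaving out Y30F-DMSO replicate 1 or 3, or Y30F-DEX replicate 2 or 3, each ended the Y30F call, with adjusted p-values between 0.0633 and 0.0933. A second SPRED2 probe was at background on all arrays.

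SPRED1, which brings the Ras inhibitor neurofibromin to the membrane, did not pass with either receptor. Its scaled signal was 565, 554 and 553 in Y30F-DEX, against 698, 576 and 629 in Y30F-DMSO, and 538, 536 and 490.3 in Y30E-DEX, against 619, 583 and 595 in Y30E-DMSO. The groups do not overlap, but the spread among Y30F-DMSO arrays was wide. The changes were -0.18 ± 0.07 with Y30F and -0.20 ± 0.07 with Y30E (log2, SE; limma adjusted p = 0.284 and 0.226). Its second probe changed by -0.21 ± 0.07 and -0.33 ± 0.07 (limma adjusted p = 0.267 and 0.0558, with all probes tested as features).

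SPRY2 and SPRY4 are Sprouty proteins, which inhibit signalling from receptor tyrosine kinases to ERK. SPRY4 had scaled signals of 115, 118 and 121 in Y30F-DEX, against 163, 143 and 135 in Y30F-DMSO, and of 125, 111 and 123 in Y30E-DEX, against 138, 125.1 and 129 in Y30E-DMSO. Each DEX array lay below each DMSO array of the same receptor, though the nearest Y30E arrays almost touched. The SPRY4 change with Y30F was -0.31 ± 0.08 (log2, SE) and missed the threshold (limma adjusted p = 0.0872), while with quantile normalization it was -0.38 and passed (limma adjusted p = 0.0338). With Y30E it was -0.13 ± 0.08 (limma adjusted p = 0.491).

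SPRY2 had scaled signals of 461, 511 and 482 in Y30F-DEX, against 625, 435 and 546 in Y30F-DMSO, which overlap. In the Y30E groups it had 416, 412 and 428 in Y30E-DEX, against 470.4, 468 and 459 in Y30E-DMSO, which do not. The SPRY2 changes were -0.13 ± 0.11 and -0.15 ± 0.11 (log2, SE; limma adjusted p = 0.65 with Y30F and 0.55 with Y30E). These errors pool the 4 groups, with an SD of 0.26 (log2) in Y30F-DMSO but 0.02 in Y30E-DMSO and 0.03 in Y30E-DEX. With only the groups compared in the fit, the errors were 0.14 with Y30F and 0.04 with Y30E (limma adjusted p = 0.798 and 0.192).

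Counted over the set, the arrays of DEX and DMSO groups did not overlap for 5 of 8 members with Y30F, 1 higher and 4 lower, where 15.4% of all features did not (9.82% higher and 5.6% lower). With Y30E this held for 6 of 8, 1 higher and 5 lower, where 22.6% of all features did not (11.3% in each direction). AREG and EGFR overlapped with both receptors, and SPRY2 with Y30F.

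The mean of the effects with Y30F and with Y30E gives a second estimate, in which the slide 2 arrays stand on opposite sides (2 under dexamethasone, 2 under DMSO). In it ERRFI1 rose by 1.22 ± 0.08 (log2, SE, n = 6 against 6; limma adjusted p = 1.19e-05) and stood at rank 27 of 20037 by size of the rise. HBEGF fell by 0.29 ± 0.04 (limma adjusted p = 0.00179) and SPRED2 by 0.30 ± 0.05 (limma adjusted p = 0.00394). These 3 of 8 members changed, 1 higher and 2 lower, where 3.77% of all features did, 2.7% higher and 1.06% lower. The Ras-ERK inhibitors SPRY4 and SPRED1 lay just beyond the threshold, at -0.22 ± 0.05 and -0.19 ± 0.05 (limma adjusted p = 0.0553 and 0.0643). The second SPRED1 probe, at -0.27 ± 0.05, passed (limma adjusted p = 0.0176, with all probes tested as features). SPRED1 also passed without Y30F-DMSO replicate 2 (limma adjusted p = 0.0194), as did SPRY2 (0.0312), and SPRY4 passed without Y30F-DMSO replicate 3 (0.0375). In those fits 822 and 650 of all features passed, against 755 with all arrays. Over all 24 alternatives SPRY4 passed in 3, SPRED1 in 2 and SPRY2 in 1. SPRY2 was at -0.14 ± 0.08, AREG at -0.14 ± 0.07 and EGFR at -0.03 ± 0.05 (limma adjusted p = 0.468, 0.429 and 0.893). With slide as a block, ERRFI1 alone passed among the 8 (limma adjusted p = 0.0011), where 1.8% of all features did, and HBEGF and SPRED2 were at -0.29 and -0.29 with adjusted p-values of 0.0683 and 0.116.

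**Figure D3:**
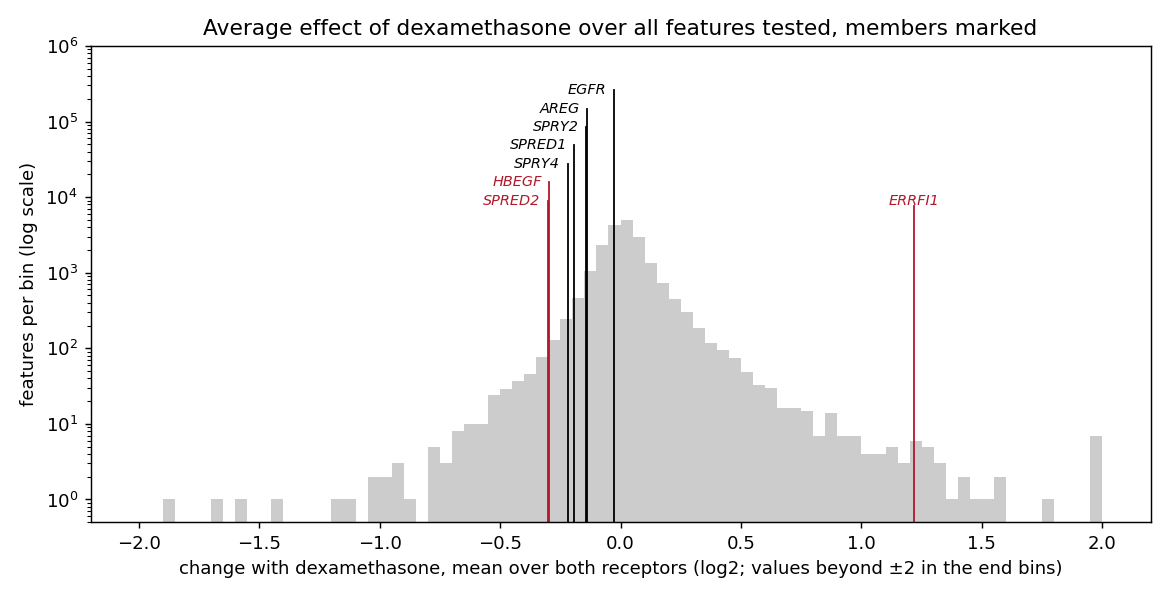
Number of features (y axis, log scale) by the mean change with dexamethasone over both receptors (x axis, log2, bins of 0.05), with vertical lines at the 8 measured members, red where past the threshold (line heights only separate the names). ERRFI1 lies at 1.22 in the sparse right tail, and the other 7 lie between -0.30 and -0.03, left of the peak of the distribution.

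Among all called changes, those of ERRFI1 were large. The median change of all features called higher was 0.54 (log2) with Y30F, 0.48 with Y30E and 0.33 for the mean effect, and ERRFI1 exceeded each. The median of all features called lower was -0.43 with Y30F, -0.46 with Y30E and -0.27 for the mean effect. Where they were called, HBEGF and SPRED2 lay nearer to 0 than that median with the single receptors and slightly farther from 0 for the mean effect.

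Whether the receptor mutants differed in their effect on the set was tested by taking the effect with Y30F from that with Y30E. None of the 8 members passed (limma), and 0% of all features passed. An unadjusted p under 0.05 was found for 1 of 8 members and for 2255 of 20037 features. The number of features that passed depended on single arrays. It was 1130 of 20037 when Y30F-DEX replicate 1 was dropped, and 125 when replicate 3 of Y30E-DMSO was dropped. Each is the only array of its group that shared a slide with the other treatment of the same receptor. Dropping any other array gave 0 or 1 features. In all these fits 0 members passed, and the cause of the higher counts was not tested. For ERRFI1 the difference was 0.04 (log2), with a 95% confidence interval from -0.30 to 0.39. For HBEGF it was 0.04, from -0.14 to 0.22, and for SPRED2 0.12, from -0.09 to 0.32. For EGFR it was 0.04, from -0.20 to 0.28, for SPRED1 -0.02, from -0.24 to 0.20, for SPRY2 -0.03, from -0.36 to 0.31, and for SPRY4 0.19, from -0.06 to 0.43. The call of SPRED2 with Y30F alone is thus not shown to be a difference between the receptors.

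AREG had the largest difference, 0.37 (log2), with an interval from 0.07 to 0.68 (limma adjusted p = 0.359). Its 2 Y30F-DEX arrays on slide 2 lay 0.29 (log2) below the one on slide 1. Its 2 Y30E-DMSO arrays on slide 2 lay 0.05 above the one on slide 3. With slide as a block the difference was 0.21 ± 0.17 (SE), and a cause was not tested. The intervals of all 8 members leave out offsets between slides.

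**Figure D4:**
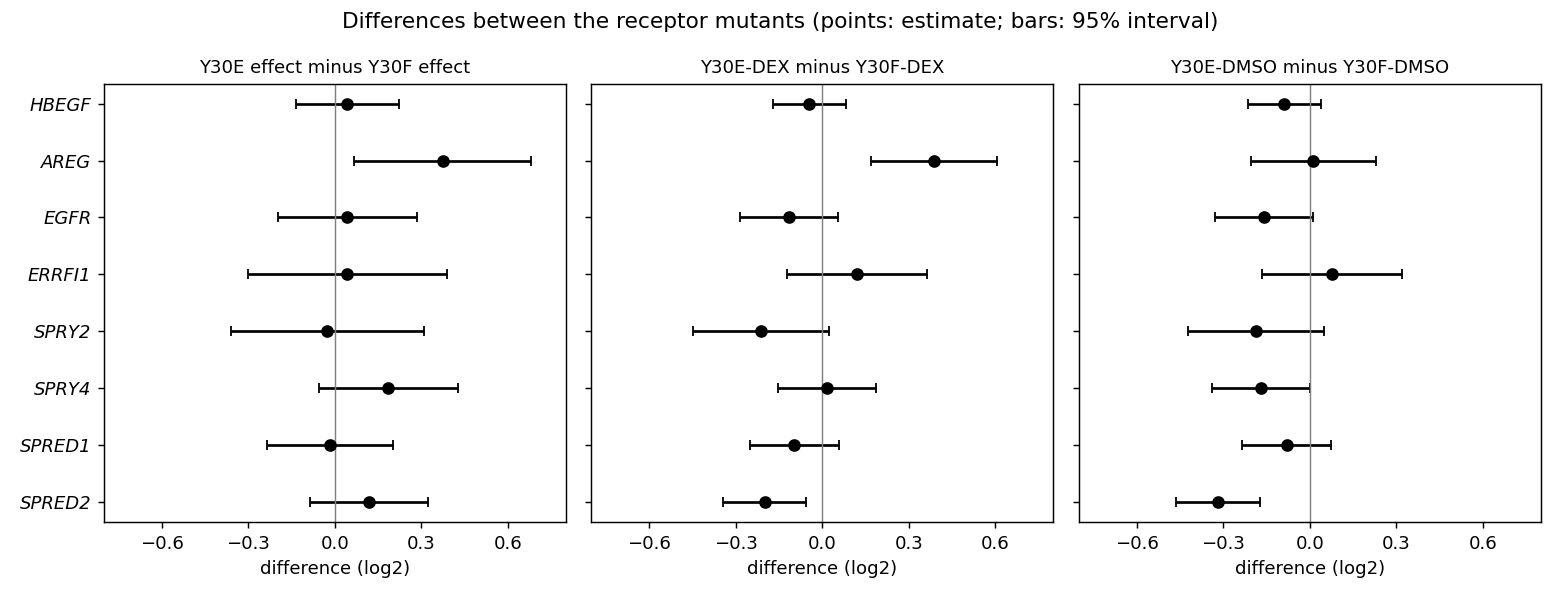
Differences between the receptor mutants (x axis, log2, with 95% confidence intervals) of the 8 measured members, for the dexamethasone effect (left), under dexamethasone (middle) and under DMSO (right). AREG lies right of 0 in the left and middle panels, SPRED2 left of 0 in the middle and right panels, and no value passed the test over all features.

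The mutants were also set against each other under the same treatment. No member passed in either comparison (limma). An unadjusted p under 0.05 was found for 2 of 8 members under dexamethasone and 1 of 8 under DMSO. The same held for 2729 of 20037 features under dexamethasone and 2777 of 20037 under DMSO. Of all features, 0.015% passed under dexamethasone and 0.00998% under DMSO. SPRED2 was lower with Y30E under both treatments, by 0.20 ± 0.07 under dexamethasone and 0.32 ± 0.07 under DMSO on the log2 scale (SE, n = 3 against 3; limma adjusted p = 0.262 and 0.144). Under DMSO its Y30E arrays, at 242 to 272, lay below its Y30F arrays, at 309 to 322. Arrays of the 2 mutants did not overlap for 5 of 8 members under dexamethasone and for 1 of 8 under DMSO, where 20.4% and 20% of all features did not. AREG was 0.39 ± 0.10 (log2) higher in Y30E-DEX than in Y30F-DEX (limma adjusted p = 0.209). For ERRFI1 the differences were 0.12 ± 0.11 under dexamethasone and 0.08 ± 0.11 under DMSO (limma adjusted p = 0.678 and 0.822), and for HBEGF they were -0.04 ± 0.06 and -0.09 ± 0.06 (limma adjusted p = 0.776 and 0.531). No slide held arrays of both receptors under the same treatment, so the only estimates that allow for slide come through the other groups on the shared slides. With slide as a block, SPRED2 under DMSO was at -0.29 ± 0.13 and AREG under dexamethasone at 0.53 ± 0.16 (log2, SE; limma adjusted p = 0.783 and 0.773). AREG under DMSO was at 0.32 ± 0.16 in that fit (limma adjusted p = 0.784), against 0.01 ± 0.10 without the block.

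By Pearson correlation over the 12 arrays, the features most like ERRFI1 included the records NM_015508, with r = 0.993, and NM_014867, with r = 0.988. With Y30F they rose by 0.79 and 1.04 (log2), and with Y30E by 0.79 and 0.93. Those most like HBEGF included NM_006290, with r = 0.958, and NM_003897, with r = 0.952. NM_006290 changed by -0.47 and -0.45 with Y30F and Y30E and NM_003897 by -0.74 and -0.67, and all 4 records passed with both receptors. For SPRED2 the 3 most alike features had r between 0.949 and 0.962, and none of them passed with either receptor. These correlations are descriptions, since the 12 arrays share the groups and slides.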

How the data were processed

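Total RNA of 12 samples was Cy3-labelled and hybridised to Agilent Whole Human Genome 4x44 arrays, 1 sample per array, per the labels' protocols. Per the file headers, the deposited intensity is Agilent's processed green signal, which is corrected for background and spatial trend on the array and carries no scaling across arrays. It came from Feature Extraction version 12, per the submitters' processing notes. The deposited median signal and background intensity and the spot flags (other columns) were also used. The series table held the same values, with 0 differing.

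Groups came from the titles and slides from the file headers. Of 45015 spots, 1639 control spots were left out, and outlier spots were dropped. The log2 signal of each array was reduced by its 75th percentile before averaging the spots of each probe. A probe passed where a share of 0.5 or more of its spots exceeded background (Agilent's flag) on every array of 1 or more groups. The brightest such probe stood for its record, which gave 20037 features. limma 3.58.1 (lmFit, eBayes, R 4.3.3; statmod 1.5.0 for the random block) was fitted with 4 group means to the 12 arrays, which leaves 8 residual degrees of freedom. P-values were adjusted by Benjamini-Hochberg over the 20037 features, with 0.05 as the threshold. Errors are limma's SE unless marked SD. The code was tested on simulated data.

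Results were recomputed with median centring, quantile normalization, normexp (offset 50, on the median signal, since the planned mean signal is not among the columns used here), the series table, other filters, all probes, slide and replicate blocks, fewer arrays and another prior. All members with values are named; beside them the rule names the 3 features most like each member called with either receptor, of which at most 2 IDs per direction are printed. The members and lists were chosen with earlier results of these data known. The planned lists of other pathway genes and cell type markers were not used, since no table given here pairs their names with IDs, and probe and protein sequences were not used for the same reason.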

Additional observations from a re-analysis of the deposited data

How the results depend on the processing

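Over 24 to 26 alternatives per comparison and member, 0 of 202 values of called results changed sign, 163 kept their call and 39 lost it. Of 998 values of results not called, 13 passed and 36 changed sign without passing. ERRFI1 kept its call in all alternatives but 2, both with Y30F and a single Y30F-DEX array (log2 changes from 1.07 to 1.31 with Y30F and from 1.19 to 1.35 with Y30E). HBEGF lost its call in 8 of 26 alternatives with Y30F and 15 of 26 with Y30E, and SPRED2 in 10 of 26 with Y30F.

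With Y30F, 3 members and 365 of 20037 features passed in the report. Under alternatives it was 1 and 248 with no filter (of 32379), 1 and 120 with slide as a fixed block, 1 and 137 with only the groups compared, 0 and 39 without slide 2, and 0 and 6 within slide 1. With quantile normalization it was 4 and 330, and with median centring 4 and 267. With 1 array left out, 1 to 4 members passed. With Y30E, 2 members and 423 features passed in the report. It was 1 member in each of the following, with 348 features under median centring, 259 with no filter, 182 with slide as a fixed block, 308 with the replicate block, 305 with only the groups compared, 71 without slide 2 and 47 within slide 3. With 1 array left out, 1 to 2 members passed. For the mean effect, 3 members and 755 features in the report, it was 1 and 360 with slide as a fixed block, 1 and 202 without slide 2, and 3 to 5 members with 1 array left out. For the mean effect it was also 4 and 729 with quantile normalization and 4 and 819 with a trend and robust prior. With only probes well above background on all 12 arrays it was 4 and 784 (of 18424). Among the alternatives given here with their count of features, calls over all features fell too wherever fewer members passed. Where more members passed, they fell with quantile normalization and median centring and rose with the other filter and prior. With 1 array left out they fell or rose, from 207 (without Y30F-DEX replicate 3) to 1367 (without Y30F-DEX replicate 1) with Y30F. With Y30E they ran from 184 (without Y30E-DMSO replicate 1) to 596 (without Y30E-DMSO replicate 3). For the mean effect they ran from 555 (without Y30F-DEX replicate 3) to 822 (without Y30F-DMSO replicate 2).

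For Y30E against Y30F under DMSO, 0 members and 2 features in the report, 3 members (SPRED2, SPRY4 and EGFR, all lower) and 1578 features passed with median centring, of which 12.6% were higher. Median centring moved the median of all features to -0.16 there and to -0.11 for dexamethasone with Y30F. With 1 array left out, 0 to 1 members passed (SPRED2 without Y30F-DEX replicate 1, limma adjusted p = 0.0432, with 598 features).

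The replicate numbers of the titles are not shown to pair samples. In 2 of 18 same-numbered pairs the correlation of deviations from the group means was over 0.1 (from -0.43 to 0.27). With the replicate block 2 members and 272 of 20037 features passed with Y30F, 1 and 308 with Y30E, and 3 and 606 for the mean effect. The number of arrays limits the precision, and the causes of lost calls were not tested.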
